A study of Mus musculus with 11 samples.

Results

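The genes described here are 46 mouse gene symbols of the actin cytoskeleton and of serum response factor (SRF), taken by name: SRF itself and its coactivators, actins, smooth-muscle-type actin-binding proteins, myosin light and heavy chains, tropomyosins, adhesion and linker proteins, and the signalling genes Rhoa, Rhob, Rock1, Rock2 and Cdc42ep3. The symbols were matched to the rows of the deposited gene counts. Of the 46, 45 had a row among 24490 genes, and all 45 were among the 14144 genes with enough reads to be tested. Diap1 had no row. The cells were primary ovarian granulosa cells of RjOrl:SWISS mice, the somatic cells that surround the oocyte, and their age is not given. All libraries came from cells transfected with 30 pmol of siRNA with RNAiMax, the mix being taken off at 5 h and RNA being extracted at 30 h. Each of 4 Akt1 siRNA pools gave 2 libraries. Akt1 encodes a serine/threonine kinase of insulin and growth factor signalling. Cells given a nontargeting siRNA, called scramble, gave 3 libraries. A pool was a mix of 3 out of 4 siRNAs, and the one left out was siRNA 9 for pool 1, siRNA 8 for pool 3, siRNA 6 for pool 4 and siRNA 7 for pool 2. Pools 1, 3 and 4 thus shared siRNA 7. This assumes that the pool numbers of the titles are those of the protocol, which names the pools differently. The labels do not say whether replicates were separate cultures or separate animals, so every p-value measures only the spread between these libraries, which may be technical.

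SRF is a transcription factor that binds a short A/T-rich element called the CArG box. With coactivators of the MRTF family, named Mkl1 and Mkl2 in these files, it drives genes of actin filaments and of contraction. Monomeric actin holds MRTF back in the cytoplasm, and when filaments assemble the monomer pool shrinks and MRTF enters the nucleus. With coactivators of another kind, the ternary complex factors (TCFs), SRF drives immediate early genes such as Fos. Granulosa cells carry many actin stress fibres when they spread on a culture dish, and the follicle wall outside them holds smooth muscle cells that express much of the same contractile set.

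Levels are given as CPM, reads of a gene scaled to a fixed total of reads in genes, with spike-in rows left out. Depth was 23851293 to 32643158 reads per library. The targeted gene was low in all pool libraries: Akt1 was counted at 63.9 and 58.6 CPM in pool 1, 79.3 and 81.7 in pool 3, 55.1 and 62.4 in pool 4, 52.7 and 55.1 in pool 2, and 529, 428 and 399 in scramble. Over all 8 pool libraries it fell by 2.87 ± 0.13 (SE) on the log2 scale against scramble (edgeR adjusted p = 4.22e-07). Scramble replicate 1 was unlike the other 10 libraries. The median of its correlations of log2 CPM with them was 0.948, against 0.989 to 0.993 for the rest, and it was the library farthest from the mean of the others for 67.2% of tested genes. Its counts differed from those of the other scramble libraries by a chi-square of 289 and 311 per degree of freedom, against 2.72 to 6.55 for all other pairs within a group. Results of the members are therefore given with all libraries and, where the call changes, also without scramble replicate 1. The granulosa label was checked on 16 marker genes, whose summed level was 4326 to 4485 CPM in pool 1, 3426 to 3577 in pool 3, 4227 to 4436 in pool 4, 4967 to 5347 in pool 2 and 5532 to 5690 in scramble. Inha, the inhibin alpha subunit, led them with a mean of 1962 CPM over all libraries. Fshr and Amh, the FSH receptor and anti-Müllerian hormone, averaged under 1 CPM in every group, and Cyp19a1, the oestrogen-making aromatase, averaged 1.96 to 2.99 CPM. Over all libraries, theca and stroma markers summed to 2406 to 3104 CPM, led by the collagen gene Col1a1 at a mean of 1457 CPM. Surface epithelium markers summed to 340.3 to 649 CPM, and those of endothelium, leukocytes and oocytes each to at most 29.4 CPM. The sums depend on the genes listed and are not shares of cells.

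The promoters of the members were read first for the CArG box, the element that SRF binds. A RefSeq promoter window (build GRCm38.p6, 250 bases before to 50 after a gene's start) existed for 41 of the 45 members and not for Actb, Actg2, Tagln and Rock1. The motif searched was the box written as 2 C, 6 A or T in any order and 2 G, which reads as the same motif on both strands. It was found in 9 of the 41 members (22%), against 488 of 27025 genes in the whole table (1.81%). The set was put together from actin cytoskeleton genes and SRF targets, so this share describes the choice as much as the genes. The 9 were Srf, Actg1, Cnn2, Myl9, Myl6, Vcl, Fhl2, Vil1 and Fermt2. The 250 bases before the start are printed for SRF's own gene, which holds 2 boxes, and for 3 members of different roles whose levels are described below, with the boxes in capitals. The window bases shown lie for Srf at chr17:46556163-46556412 on the minus strand, for Myl9 at chr2:156775214-156775463, for Cnn2 at chr10:79988350-79988599 and for Vcl at chr14:20929148-20929397, these 3 on the plus strand, all in GRCm38.p6.
Srf: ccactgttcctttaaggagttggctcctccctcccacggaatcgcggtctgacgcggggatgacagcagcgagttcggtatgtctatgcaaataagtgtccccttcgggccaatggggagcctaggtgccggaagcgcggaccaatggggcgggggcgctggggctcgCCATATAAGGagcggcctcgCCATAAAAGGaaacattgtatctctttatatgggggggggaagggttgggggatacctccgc
Myl9: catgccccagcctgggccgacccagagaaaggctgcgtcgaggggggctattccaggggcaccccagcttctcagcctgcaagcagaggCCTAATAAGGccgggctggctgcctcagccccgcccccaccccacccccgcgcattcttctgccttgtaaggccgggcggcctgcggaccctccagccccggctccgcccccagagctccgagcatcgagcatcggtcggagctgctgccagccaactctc
Cnn2: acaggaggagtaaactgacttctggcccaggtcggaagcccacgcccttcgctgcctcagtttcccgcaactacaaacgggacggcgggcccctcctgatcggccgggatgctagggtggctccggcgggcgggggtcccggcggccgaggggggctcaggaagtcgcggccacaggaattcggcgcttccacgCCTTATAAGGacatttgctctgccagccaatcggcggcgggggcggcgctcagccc
Vcl: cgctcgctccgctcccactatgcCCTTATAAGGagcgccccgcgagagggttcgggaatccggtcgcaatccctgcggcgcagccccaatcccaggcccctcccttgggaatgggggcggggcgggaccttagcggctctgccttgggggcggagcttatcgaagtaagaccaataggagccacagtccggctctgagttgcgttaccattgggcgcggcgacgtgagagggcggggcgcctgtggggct
Counted back from the start, the boxes began at −82 and −62 in Srf, −161 in Myl9, −56 in Cnn2 and −227 in Vcl. Cnn2 and Vcl carried the same 10 letters, CCTTATAAGG, and the first box of Srf, CCATATAAGG, differed from them in the A/T core. A match is a run of letters and not evidence of binding, and a window without one says only that these letters are not in it.

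Myosin light chain, smooth muscle actin, tropomyosin and stress fibre genes were among the members that fell in pools 1, 3 and 4 against pool 2, together with Srf, Mkl1 and Rhoa. With all libraries, 16 of 45 members (35.6%) passed edgeR's quasi-likelihood test at a Benjamini-Hochberg adjusted p below 0.05, and all 16 were lower, where 5.25% of all 14144 tested genes passed in either direction and 3.95% passed lower. The members had a median log2 fold change of −0.40, where the median of all tested genes was 0.01. In 33 members all 6 libraries of pools 1, 3 and 4 lay below both libraries of pool 2, in 5 they lay above, and in 7 the groups overlapped, while 18.7% of all tested genes lay below and 31.6% above. Without scramble replicate 1, which enters this comparison only through the shared spread, the scaling and the filter, 38 members passed, 35 lower and 3 higher, where 43.7% of 14062 genes passed, 23.5% lower and 20.3% higher. All 16 were among the 38. The count was 4 without either library of pool 2 and 7 to 9 without any single library of pools 1, 3 or 4. Shares of all genes are not given for the fits without a pool library. Their lower counts thus cannot be told apart from fewer calls over all genes. The split of the pools into 1, 3 and 4 against 2 was chosen with earlier results of these data known.

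**Figure D1:**
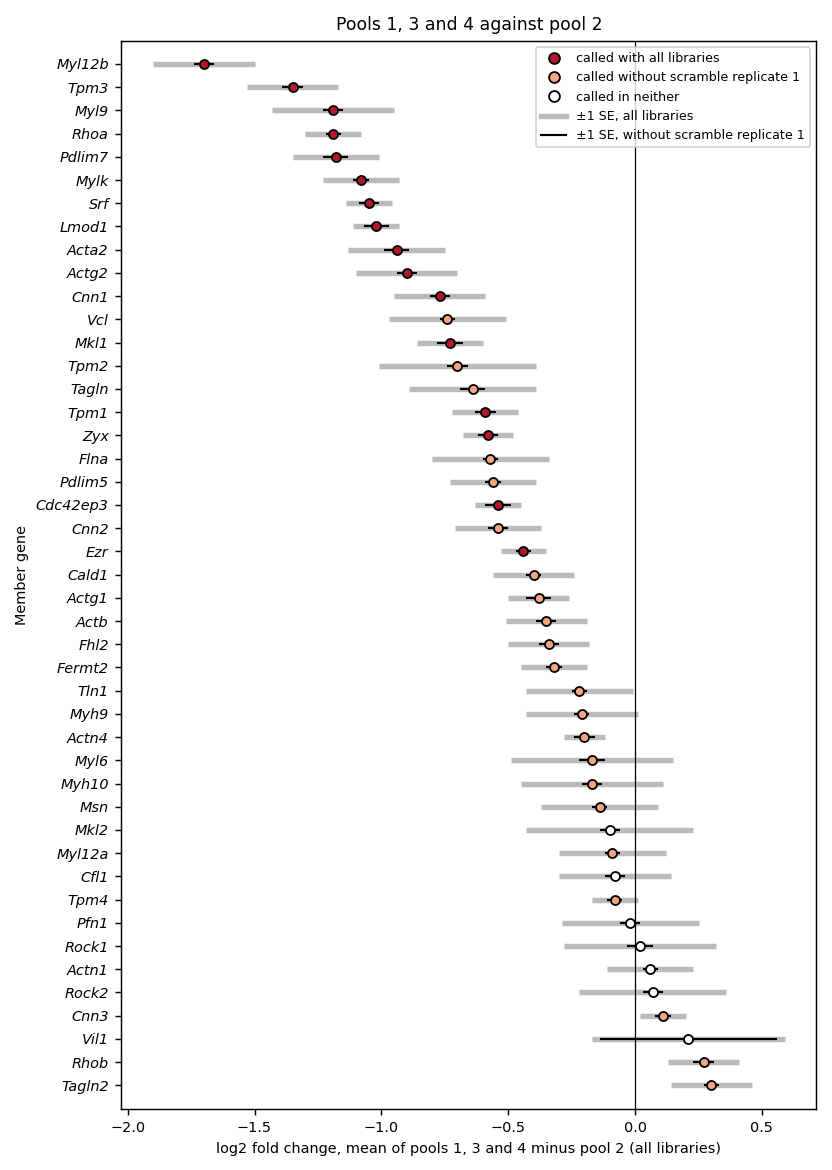
Fold changes of the 45 members, as the log2 of pools 1, 3 and 4 over pool 2 from edgeR on the x axis, with 1 gene per line sorted by size. Points are the estimates with all libraries, grey bars ±1 SE with all libraries and black bars ±1 SE without scramble replicate 1, and the fill shows whether the gene passed an adjusted p of 0.05. Myl12b at −1.70 and Tpm3 at −1.35 stand farthest left, and Tagln2 at 0.30 farthest right.

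Among the transcriptional regulators, SRF's own gene followed the same split. Srf (chr17:46548329-46556175 in mm10, minus strand) was counted at 38.6 and 37.5 CPM in pool 1, 29.8 and 33.8 in pool 3, 35.8 and 37.3 in pool 4, 70.8 and 70.1 in pool 2, and 87.3, 73.7 and 70.1 in scramble. The 6 libraries of pools 1, 3 and 4 lay below all others, and pool 2 lay at the lower edge of the scramble range. Srf fell in pools 1, 3 and 4 against pool 2 (log2 fold change −1.05 ± 0.09 SE, edgeR adjusted p = 0.000604). Its coactivator gene Mkl1, which encodes MRTF-A, was at 73.3 and 83.7 CPM in pool 1, 71.5 and 71.2 in pool 3, 79 and 74.7 in pool 4, 125 and 116 in pool 2, and 85.4, 119 and 104 in scramble. Mkl1 fell as well (log2 fold change −0.73 ± 0.13 SE, edgeR adjusted p = 0.014), with pools 1, 3 and 4 below every pool 2 and scramble library. The paralog Mkl2, which encodes MRTF-B, was at 89.1 and 93.6 CPM in pool 1, 80.8 and 82.9 in pool 3, 89.2 and 89.6 in pool 4, 87.2 and 93.1 in pool 2, and 29.3, 77.6 and 85.4 in scramble. Mkl2 did not pass (log2 fold change −0.10 ± 0.33 SE, edgeR adjusted p = 0.982), its pool libraries overlapped, and scramble replicate 1 alone stood far below the rest. The length-normalised levels of the 3 genes in pool 2 were 24.3 CPM per kb of exon for Srf, 19.8 for Mkl1 and 10 for Mkl2.

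The signalling members did not all move one way. Rhoa, whose product promotes stress fibres through ROCK and formins, was at 111 and 111 CPM in pool 1, 89 and 91.4 in pool 3, 109.9 and 113 in pool 4, 231 and 224 in pool 2, and 314, 234 and 229 in scramble. It fell in pools 1, 3 and 4 against pool 2 (log2 fold change −1.19 ± 0.11 SE, edgeR adjusted p = 0.000822), and none of those 6 libraries reached the lowest pool 2 or scramble library. Its relative Rhob, an immediate early gene that is itself induced by growth factors, had a positive fold change (log2 fold change 0.27 ± 0.14 SE, edgeR adjusted p = 0.38) that passed without scramble replicate 1 (log2 fold change 0.27 ± 0.04 SE, edgeR adjusted p = 1.04e-05). Rock2, a kinase that the Rhoa product activates and that raises myosin phosphorylation, was at 351 and 354 CPM in pool 1, 404 and 381 in pool 3, 363 and 359.8 in pool 4, 341 and 336 in pool 2, and 134, 299 and 329 in scramble. All 6 libraries of pools 1, 3 and 4 were above pool 2, by a difference that did not pass with all libraries (log2 fold change 0.07 ± 0.29 SE, edgeR adjusted p = 0.988) or without scramble replicate 1 (log2 fold change 0.07 ± 0.04 SE, edgeR adjusted p = 0.165). Rock1, its paralog, was at 0.02 ± 0.30 on the same scale (adjusted p = 0.993 by edgeR). Cdc42ep3, which encodes a CDC42 effector that binds septins, fell (log2 fold change −0.54 ± 0.09 SE, edgeR adjusted p = 0.0148).

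The largest fold change was that of a myosin light chain gene. Myl12b, a regulatory light chain of nonmuscle myosin II, was at 49.8 and 48.3 CPM in pool 1, 46.3 and 45.8 in pool 3, 44.9 and 47 in pool 4, 151 and 143 in pool 2, and 256, 144 and 135 in scramble. The 6 libraries of pools 1, 3 and 4 had at most 49.8 CPM and all others at least 135 CPM. This was the largest change among the members (log2 fold change −1.70 ± 0.20 SE, edgeR adjusted p = 0.00225), 3.25-fold lower in pools 1, 3 and 4 than in pool 2. Of its 75-base windows, 24.7% also occur in another annotated gene, chiefly a 2nd entry under the same symbol, and 18.5% of the windows of the neighbouring paralog Myl12a occur in another annotated gene, chiefly Myl12b, so reads of such windows cannot be placed with certainty. Myl12a did not pass with all libraries (log2 fold change −0.09 ± 0.21 SE, edgeR adjusted p = 0.959) and passed without scramble replicate 1 (log2 fold change −0.09 ± 0.03 SE, edgeR adjusted p = 0.0268). Myl9, the regulatory light chain of smooth muscle, was at 162 and 169.6 CPM in pool 1, 114 and 111 in pool 3, 153 and 167 in pool 4, 319 and 315 in pool 2, and 587, 304 and 264 in scramble. It fell in pools 1, 3 and 4 (log2 fold change −1.19 ± 0.24 SE, edgeR adjusted p = 0.0251), pool 3 being below pools 1 and 4. Mylk, which encodes the kinase that phosphorylates these light chains, was at 108 and 108 CPM in pool 1, 85.5 and 83.7 in pool 3, 98.2 and 102 in pool 4, 198 and 198 in pool 2, and 120, 182 and 187 in scramble. Mylk fell too (log2 fold change −1.08 ± 0.15 SE, edgeR adjusted p = 0.0068), and scramble replicate 1 was nearer to pool 1 than to the other scramble libraries. The essential light chain gene Myl6 and the nonmuscle heavy chain genes Myh9 and Myh10 had fold changes of −0.17, −0.21 and −0.17, which did not pass with all libraries and passed without scramble replicate 1 (edgeR adjusted p = 0.00452, 1.91e-05 and 0.000494).

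**Figure D2:**
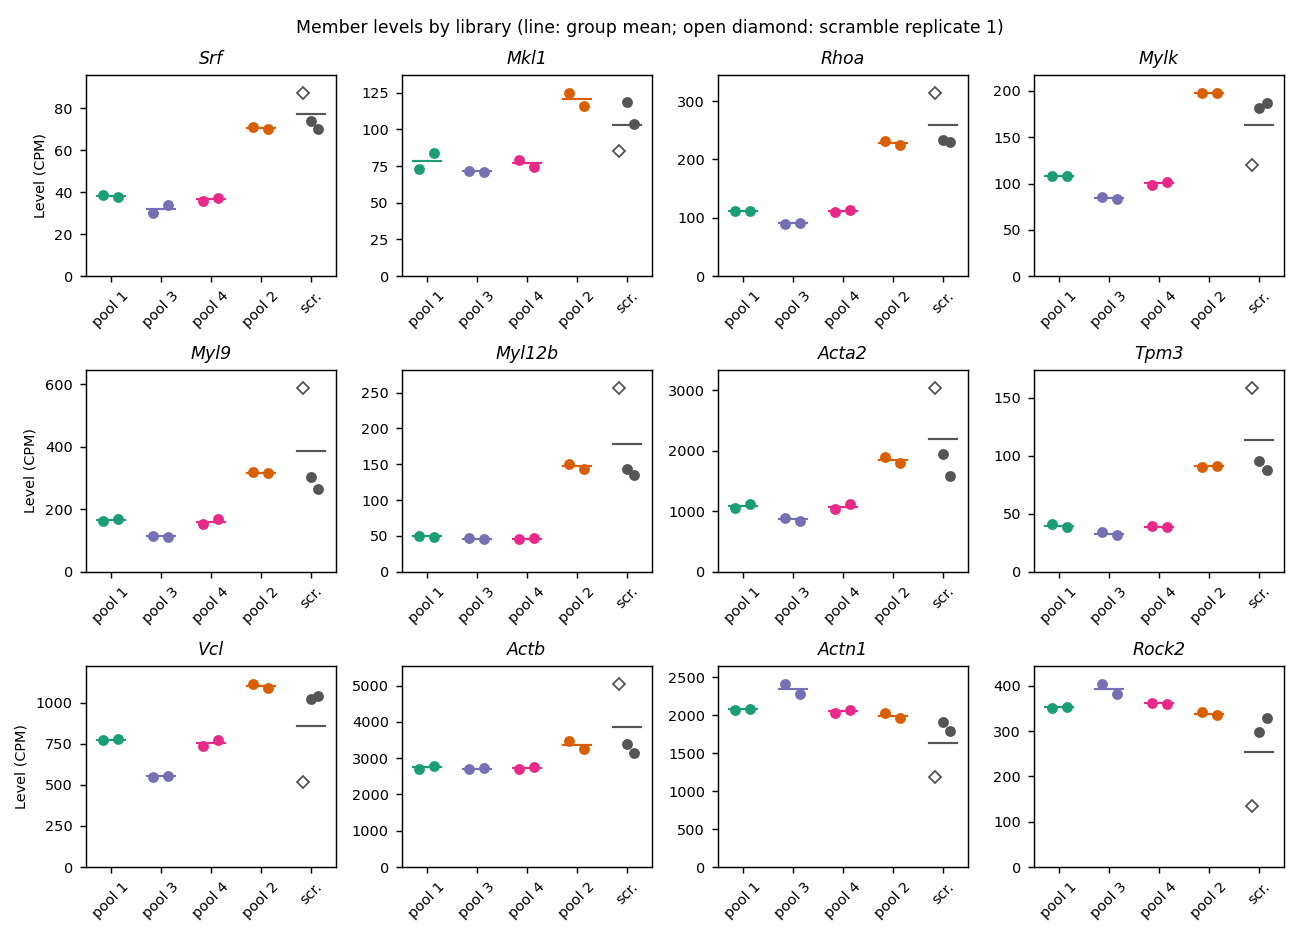
Levels of 12 members in every library, in CPM on y axes that start at 0, by group on the x axis. Each point is a library, the open diamond is scramble replicate 1 and each line the group mean. Pools 1, 3 and 4 are low and pool 2 lies near scramble replicates 2 and 3 for Srf, Rhoa and Myl12b, while scramble replicate 1 is far above the other scramble libraries for Myl9 and far below them for Vcl.

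The actins were led by Actb and Acta2. Per kb of exon, scramble libraries averaged 1441 CPM for Actb (cytoplasmic beta-actin), 996 for Acta2 (vascular smooth muscle alpha-actin), 133 for Actg2 (enteric smooth muscle gamma-actin) and 35.5 for Actg1 (cytoplasmic gamma-actin). The Actg1 level is uncertain, since 33.5% of its windows occur in other annotated genes. Acta2 was at 1054 and 1121 CPM in pool 1, 891 and 834 in pool 3, 1036 and 1115 in pool 4, 1898 and 1805 in pool 2, and 3032, 1948 and 1581 in scramble. Actg2 was at 96.7 and 103 CPM in pool 1, 85.9 and 79.4 in pool 3, 93.9 and 100.4 in pool 4, 164 and 171 in pool 2, and 293, 172 and 155 in scramble. Both fell in pools 1, 3 and 4 against pool 2, Acta2 at −0.94 ± 0.19 and Actg2 at −0.90 ± 0.20 (log2 fold change ± SE, edgeR adjusted p = 0.0283 and 0.0358). In pool 3 both were below every library of pools 1 and 4. The cytoplasmic actins had smaller fold changes. Actb was at 2706 to 2785 CPM over the 6 libraries of pools 1, 3 and 4, and at 3464 and 3238 CPM in pool 2, against 5044, 3400.4 and 3135 CPM in scramble. The fold change of Actb was −0.35 ± 0.16 and that of Actg1 −0.38 ± 0.12, and both passed only without scramble replicate 1 (edgeR adjusted p = 5.15e-08 for Actb and 1.59e-06 for Actg1).

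Calponin-family and leiomodin genes, whose products decorate or nucleate filaments in contractile cells, went the same way with 2 exceptions. Cnn1, the smooth muscle calponin, was at 86.1 and 90.9 CPM in pool 1, 76.5 and 70.5 in pool 3, 82.9 and 88.2 in pool 4, 137 and 133 in pool 2, and 224, 142 and 123 in scramble. It fell in pools 1, 3 and 4 against pool 2 (log2 fold change −0.77 ± 0.18 SE, edgeR adjusted p = 0.048). Lmod1, a leiomodin that nucleates smooth muscle filaments, was at 25.7 and 27.8 CPM in pool 1, 18.3 and 17.4 in pool 3, 25.7 and 26.5 in pool 4, 45 and 45.5 in pool 2, and 49.1, 44.2 and 38.5 in scramble. Lmod1 fell more (log2 fold change −1.02 ± 0.09 SE, edgeR adjusted p = 0.00077), and its pool 3 libraries were the lowest of all 11. Tagln, the smooth muscle protein SM22, was at 772 and 815 CPM in pool 1, 687 and 647 in pool 3, 777 and 841 in pool 4, 1153 and 1102 in pool 2, and 2173, 1145 and 969.8 in scramble. Its fold change of −0.64 ± 0.25 passed without scramble replicate 1 (edgeR adjusted p = 3.53e-10) but not with it (0.22), and 53.3% of its windows occur in another annotated gene, chiefly Gm48529. Cnn2, the broadly expressed calponin whose promoter is printed above, was at 286 and 304 CPM in pool 1, 278 and 264 in pool 3, 287 and 303 in pool 4, 415 and 389 in pool 2, and 597, 385 and 349.9 in scramble. Here too only the fit without scramble replicate 1 passed (log2 fold change −0.54 ± 0.04 SE, edgeR adjusted p = 3.36e-10), although the 6 libraries of pools 1, 3 and 4 were below all others. Cald1, caldesmon, differed by −0.40 and likewise passed only without that library (edgeR adjusted p = 4e-09). The exceptions were Tagln2, the nonmuscle relative of Tagln, and Cnn3, the acidic calponin, which were higher in all 6 libraries of pools 1, 3 and 4 than in pool 2. Without scramble replicate 1 Tagln2 rose by 0.30 ± 0.03 and Cnn3 by 0.11 ± 0.03 on the log2 scale (edgeR adjusted p = 2.55e-07 and 0.00872). With all libraries neither passed (adjusted p = 0.408 and 0.696 by edgeR).

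The tropomyosins, which run along the filament and set which proteins can bind it, differed among themselves. Tpm3 was at 41.1 and 38.1 CPM in pool 1, 34.4 and 31.2 in pool 3, 39.3 and 38.3 in pool 4, 90.5 and 90.8 in pool 2, and 158, 95.4 and 87.5 in scramble. It had the second largest change of all members (log2 fold change −1.35 ± 0.18 SE, edgeR adjusted p = 0.00537), and 19.1% of its windows occur in other annotated genes. Tpm1 was at 1350 and 1365 CPM in pool 1, 1219 and 1159.6 in pool 3, 1325 and 1384 in pool 4, 1937 and 1815 in pool 2, and 2540.3, 1838 and 1712 in scramble. It fell less (log2 fold change −0.59 ± 0.13 SE, edgeR adjusted p = 0.0442). Tpm2, the form typical of smooth muscle, was at 241 and 244 CPM in pool 1, 236 and 223 in pool 3, 245 and 256 in pool 4, 389 and 363 in pool 2, and 944, 377 and 352 in scramble. Scramble replicate 1 stood far above every other library, and the fold change of −0.70 ± 0.31 passed without it (edgeR adjusted p = 1.46e-12) but not with it (0.308). Tpm4 overlapped between the groups with all libraries (log2 fold change −0.08 ± 0.09 SE, edgeR adjusted p = 0.846) and passed without scramble replicate 1 (log2 fold change −0.08 ± 0.03 SE, edgeR adjusted p = 0.0447).

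Adhesion proteins and their linkers followed in part. Zyx, zyxin of focal adhesions and stress fibres, was at 512 and 530 CPM in pool 1, 449 and 466 in pool 3, 495 and 513 in pool 4, 721 and 703 in pool 2, and 841, 744 and 623 in scramble. Pdlim7, a PDZ and LIM domain protein of stress fibres, was at 85.5 and 89.2 CPM in pool 1, 85.4 and 87.1 in pool 3, 77.8 and 86.5 in pool 4, 184 and 187 in pool 2, and 278, 189.9 and 152 in scramble. Both fell in pools 1, 3 and 4 against pool 2 (log2 fold change −0.58 ± 0.10 SE for Zyx and −1.18 ± 0.17 for Pdlim7, edgeR adjusted p = 0.0157 and 0.00754). Pdlim7 was similar in pools 1, 3 and 4, while Zyx was lowest in pool 3. Ezr, ezrin, which ties actin to the membrane, was at 956 and 986 CPM in pool 1, 726 and 718 in pool 3, 970.5 and 964 in pool 4, 1185 and 1111 in pool 2, and 1001, 1124 and 1127 in scramble. Its fall was the smallest of the 16 (log2 fold change −0.44 ± 0.09 SE, edgeR adjusted p = 0.0247), and pool 3 was the lowest group.

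Vcl, vinculin, and Flna, filamin A, showed the split among the pools while scramble replicate 1 broke it in scramble. Vcl was at 771 and 779 CPM in pool 1, 549 and 555 in pool 3, 738 and 775 in pool 4, 1114 and 1088 in pool 2, and 519, 1023 and 1038 in scramble. Flna was at 2314 and 2464 CPM in pool 1, 2118 and 2111 in pool 3, 2285 and 2405 in pool 4, 3307 and 3213 in pool 2, and 1577, 3083 and 2982 in scramble. Pdlim5, of the same family as Pdlim7, was at 173 and 168 CPM in pool 1, 155 and 151 in pool 3, 175 and 172 in pool 4, 239 and 233 in pool 2, and 129.6, 211 and 211 in scramble. For all 3, scramble replicate 1 was the lowest of the 11 libraries and scramble replicates 2 and 3 lay above pools 1, 3 and 4. Without that library the fold changes against pool 2 were −0.74 ± 0.03 for Vcl, −0.57 ± 0.03 for Flna and −0.57 ± 0.03 for Pdlim5 (edgeR adjusted p = 3.96e-14, 9.69e-12 and 5.12e-12). With it none of the 3 passed (adjusted p = 0.124, 0.23 and 0.12 by edgeR). The gene Ap3m1 overlaps Vcl in the annotation, and 24.9% of the Vcl windows are shared, chiefly with it.

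Of the other adhesion and filament genes, Fhl2, Fermt2, Tln1, Actn4 and Msn had fold changes of −0.34 to −0.14 and passed only without scramble replicate 1. Actn1, an alpha-actinin that crosslinks filaments, was above pool 2 in all 6 libraries of pools 1, 3 and 4 but did not pass (log2 fold change 0.06 ± 0.17 SE, edgeR adjusted p = 0.978). The actin monomer protein gene Pfn1 and the severing protein gene Cfl1 had fold changes of −0.02 and −0.08, which passed in neither fit. Vil1, villin of epithelial microvilli, was barely counted, at 0.417 and 0.709 CPM in pool 1, 0.588 and 0.69 in pool 3, 0.391 and 0.293 in pool 4, 0.361 and 0.469 in pool 2, and 0.551, 0.184 and 0.461 in scramble, or 5 to 22 reads per library. A difference in Vil1 was not detectable at this depth. Windows shared with other annotated genes made up 16.1% of Cnn3, 12.9% of Cfl1 and 12.1% of Tpm4, so their levels are uncertain to that extent.

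**Figure D3:**
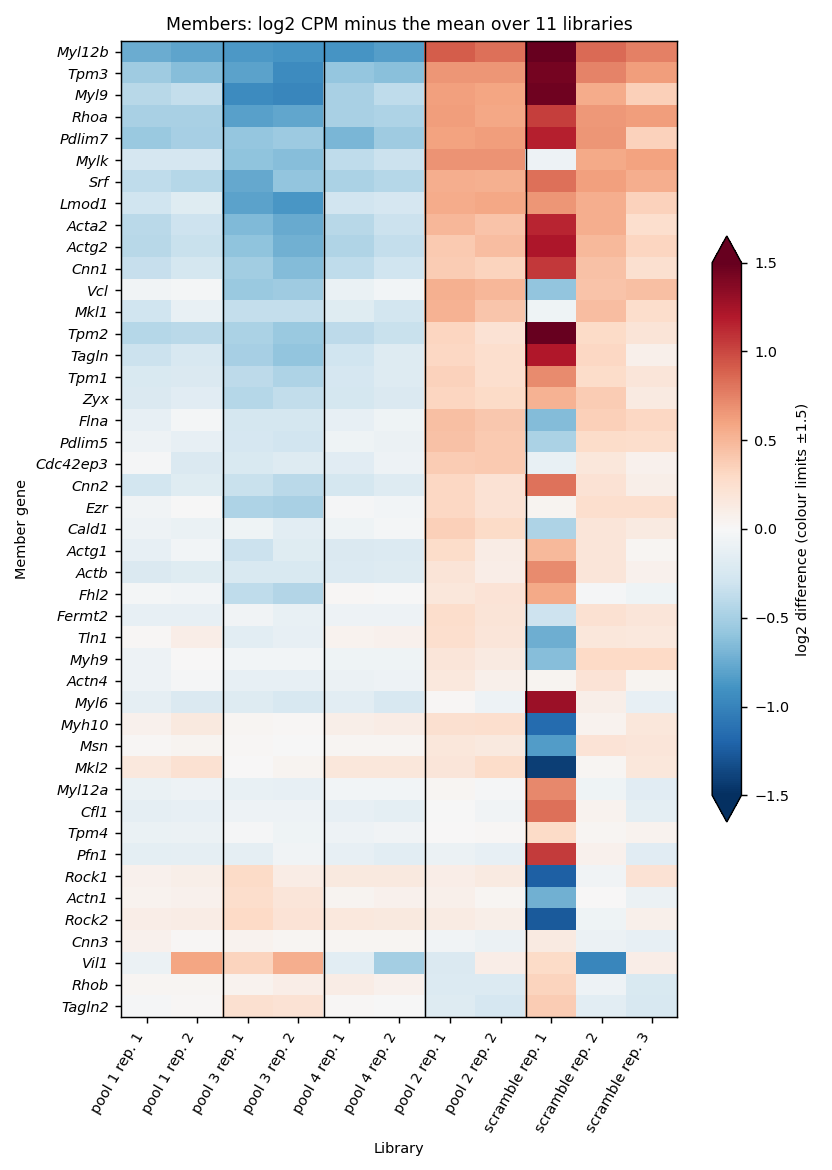
Level of each of the 45 members in each of the 11 libraries, as log2 CPM minus that gene's mean over the libraries. Columns are libraries in the order pool 1, pool 3, pool 4, pool 2 and scramble, and rows are members sorted by their fold change between pools 1, 3 and 4 and pool 2. Most contractile members are low in the 6 libraries of pools 1, 3 and 4, and scramble replicate 1 shows the most extreme values of both signs.

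Each pool was also set against scramble. With all libraries, pool 1 gave 6 members that passed, pool 3 gave 17, pool 4 gave 7 and pool 2 gave 0, and all that passed were lower. For pool 1 this was 13.3% of the members, where 1.93% of all genes passed and 1.47% were lower. For pool 3 it was 37.8% of the members, where 11.2% of all genes passed and 6.84% were lower. For pool 4 it was 15.6% of the members, where 2.57% of all genes passed and 1.99% were lower, and in pool 2 only 1 gene passed (0.00707%), Akt1. These 4 comparisons share the same 3 scramble libraries. In pool 2, 1 of 45 members had an unadjusted p below 0.05 by edgeR, as had 653 of all 14144 genes. DESeq2 also passed 0 members there, where 0.321% of genes passed. The 6 of pool 1 were Srf, Myl12b, Tpm3, Lmod1, Pdlim7 and Rhoa, and the 7 of pool 4 were these and Zyx. Srf was at −1.07 in pool 1, at −1.34 in pool 3, at −1.12 in pool 4 and at −0.13 in pool 2 on the log2 scale. Myl12b was at −1.91 in pool 1, at −2.02 in pool 3, at −2.00 in pool 4 and at −0.27 in pool 2. Rhoa was at −1.27 in pool 1, at −1.59 in pool 3, at −1.26 in pool 4 and at −0.18 in pool 2. Scramble replicate 1 was the highest of the 11 libraries for Srf, Myl12b and Rhoa. Without it pool 2 was at −0.05 for Srf, 0.06 for Myl12b and −0.04 for Rhoa. Pools 1, 3 and 4 were then at −0.99, −1.26 and −1.04 for Srf and at −1.57, −1.69 and −1.66 for Myl12b. For Rhoa they were at −1.13, −1.45 and −1.12. Acta2, Actg2, Tagln, Cnn1, Cnn2, Myl9, Mylk, Tpm1, Mkl1 and Ezr passed in pool 3 alone of the 4 comparisons, which does not show that pool 3 differs from pools 1 and 4. Without scramble replicate 1 the counts were 34 in pool 1 (31 lower and 3 higher), 37 in pool 3 (32 lower and 5 higher), 35 in pool 4 (31 lower and 4 higher) and 5 in pool 2 (1 lower and 4 higher), and the shares of all genes that passed were 28.7% in pool 1 (17% lower, 11.7% higher), 48.8% in pool 3 (26.1% lower, 22.7% higher), 31% in pool 4 (17.8% lower, 13.2% higher) and 4.39% in pool 2 (2.69% lower, 1.71% higher). The 5 of pool 2 were Fhl2, Cald1, Pdlim5 and Cdc42ep3, which were higher than in scramble, and Myh9, which was lower. Without either library of the pool itself, which leaves 1 library that is assumed to vary like the others, pool 1 gave 0, pool 3 gave 4 or 5 and pool 4 gave 0. Without scramble replicate 3 the counts were 11 for pool 1, 20 for pool 3 and 11 for pool 4. Apart from scramble replicate 1, shares of all genes are not given for libraries left out in these comparisons. Their counts therefore do not set the members apart from other genes. Leaving out any of the remaining libraries gave 5 members for pool 1, 14 to 16 for pool 3, 5 or 6 for pool 4 and 0 for pool 2.

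All 8 pool libraries against the 3 scramble libraries gave no member by edgeR, with 1 of 14144 genes passing (0.00707%, Akt1). An unadjusted p below 0.05 by edgeR was found for 23 of 45 members and for 4042 of all 14144 genes. DESeq2 on the same libraries gave 12 members, where 8.82% of all genes with an adjusted p passed. Leaving out scramble replicate 1, edgeR again gave 0 members, with 66 genes passing (0.469%). In that fit 7 of 45 members had an unadjusted p below 0.05, as had 2990 of all 14062 genes. Without scramble replicate 3 it gave 12, where 16.5% of genes passed, and without any other single library 0. The authors' deposited table of this comparison lists 11 of the 37 members that have an adjusted p as below 0.05, all lower, where 9.72% of its 10136 genes with an adjusted p are below 0.05. In the authors' deposited table the largest of these are Tpm3 at −0.77, Actg2 and Myl9 at −0.69 and Rhoa at −0.68 on the log2 scale. Pool 2 enters this comparison beside the pools that differ from it. For Srf, edgeR on all pools against scramble gave −0.83. The separate pools in the fit above gave −0.13 for pool 2 and −1.07 to −1.34 for the others. The authors' deposited table has Srf at −0.62, from a different fit whose settings are not given.

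A test for any difference among the 4 pools passed 8 members with all libraries (17.8%, where 2.46% of genes passed), namely Srf, Myl12b, Mylk, Tpm3, Lmod1, Pdlim7, Rhoa and Ezr. It passed 38 without scramble replicate 1 (where 42.8% of genes passed), 0 without either library of pool 2, 3 without any single library of pools 1, 3 or 4, 5 without scramble replicate 2 and 8 without scramble replicate 3. Apart from scramble replicate 1, shares of all genes are not given for the libraries left out of this test. Within pools 1, 3 and 4, pool 3 was set against the mean of pools 1 and 4, a comparison added after the values were seen. With all libraries 0 members passed (where 2 of 14144 genes did, 0.0141%). An unadjusted p below 0.05 by edgeR was found for 5 of 45 members and for 1041 of all 14144 genes. DESeq2 passed 2 members, Lmod1 and Ezr, where 1.38% of genes passed. Without scramble replicate 1, 24 passed, 21 lower and 3 higher, where 24.7% of genes passed, 14.3% lower and 10.3% higher. The lower ones included Lmod1 at −0.59 ± 0.07, Myl9 at −0.56 ± 0.05, Vcl at −0.50 ± 0.03 and Ezr at −0.45 ± 0.04, and the higher ones were Actn1, Tagln2 and Rock2. Myl12b and Pdlim7, which were among the largest differences from pool 2, were at −0.06 and 0.01 in this comparison with all libraries. Akt1 itself was at 0.41 ± 0.12 in pool 3 against pools 1 and 4 with all libraries (edgeR adjusted p = 0.378) and at 0.40 ± 0.05 without scramble replicate 1 (edgeR adjusted p = 5.39e-06). In pools 1, 3 and 4 against pool 2 it was at 0.24 ± 0.11 with all libraries (edgeR adjusted p = 0.329) and at 0.24 ± 0.05 without that library (edgeR adjusted p = 0.000427). The part of the Akt1 level in the members' levels was not tested.

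Members fell both with and without a CArG match. Of the 9 members with a match, 2 (Srf and Myl9) were lower in pools 1, 3 and 4 than in pool 2 with all libraries. Without scramble replicate 1, 8 of the 9 were lower. Of the 32 members with a window and no match, 13 were lower with all libraries. Without scramble replicate 1, 24 of the 32 were lower and 3 higher. Of all tested genes, 3.95% were lower with all libraries, and 23.5% were lower and 20.3% higher without scramble replicate 1. Members with and without a match were not compared by a test. Myl12b, Tpm3 and Rhoa, with the largest differences besides Myl9, have no match in their windows.

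With all libraries, related genes outside the set gave smaller shares of calls than the members, a difference that was not tested. This did not hold for every list without scramble replicate 1. Members and lists alike were chosen with earlier results of these data known, so their shares also describe that choice. With all libraries, 5.25% of all tested genes passed in either direction and 3.95% passed lower. Of 32 tested MRTF-SRF targets that are not members, 7 were lower and 1 was higher in pools 1, 3 and 4 against pool 2, with a median log2 fold change of −0.20, where the median of all genes was 0.01. Ldb3, a Z-disc protein gene, was at −1.39, Myh11, the smooth muscle myosin heavy chain, at −1.34 and Itga1, the integrin alpha-1 chain, at −1.32 (edgeR adjusted p = 0.00289, 0.00225 and 0.0202). The higher one, named after its value was seen, was Ctgf, a matricellular growth factor gene, at 0.51. Of 14 TCF-SRF immediate early genes 2 were lower (Fos at −0.91 and Egr1 at −0.62) and 1 was higher (Dusp1 at 0.75), with a median of −0.04. Of 18 genes of the branched-filament nucleator ARP2/3 and its activators 1 was lower, Actr3 at −0.31. Of 19 filament turnover and capping genes 1 was lower, Dstn (the severing protein destrin, also on the MRTF-SRF list) at −0.74, and 1 was higher, Tmod1 (a pointed-end capper) at 0.58. Of 21 focal adhesion genes 0 passed by edgeR and 0 by DESeq2. By edgeR 5 of the 21 had an unadjusted p below 0.05, as had 2435 of all 14144 tested genes. The medians of these last 3 lists were 0.02, −0.05 and −0.06, and with scaling by library size the TCF median turned to 0.01. Without scramble replicate 1 the lower and higher counts were 21 and 4 for MRTF-SRF targets, 7 and 5 for TCF-SRF, 7 and 5 for ARP2/3, 8 and 5 for turnover and 6 and 5 for focal adhesion, where 23.5% of all genes were lower and 20.3% higher. DESeq2 with all libraries gave 9 and 1 for MRTF-SRF targets, 2 and 1 for TCF-SRF, 1 and 1 for ARP2/3, and 3 and 1 for turnover. The DESeq2 share of all genes is not given for this comparison, and the shares above are those of edgeR.

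**Figure D4:**
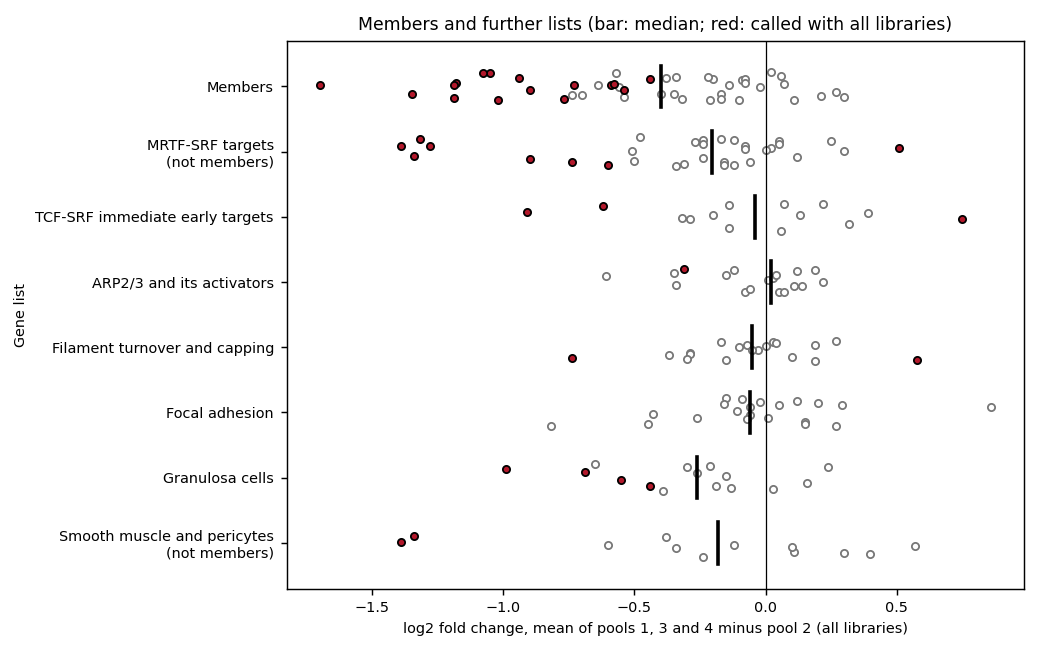
Log2 fold change of pools 1, 3 and 4 over pool 2 for every tested gene of the members and of 7 other lists, 1 row of points per list, with the median as a vertical bar. Red points passed edgeR at an adjusted p of 0.05 with all libraries. The members' median is −0.40, and the ARP2/3 list lies around 0 with a median of 0.02.

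Smooth muscle cells are a source of the same genes, and in bulk RNA fewer cells of a type cannot be told apart from less RNA per cell. The summed level of 12 smooth muscle and pericyte markers that are not members was 680.3 to 709.6 CPM in pool 1, 739 to 739.6 in pool 3, 655 to 695 in pool 4, 755 to 792 in pool 2 and 720 to 889 in scramble. None of the 12 was at 0 in all libraries, and Des (desmin) led them with a mean of 289 CPM. Of these 12, 2 were lower in pools 1, 3 and 4 than in pool 2 (Ldb3 and Myh11, which are also on the MRTF-SRF list), with a median of −0.18. Of 15 tested granulosa markers 4 were lower, Fst (follistatin) at −0.99, Gja1 (a gap junction connexin) at −0.69, Inhbb (the inhibin beta-B subunit) at −0.55 and Nr5a1 (the steroidogenic factor SF-1, named after its value was seen) at −0.44, with a median of −0.26. Among markers of other ovarian cells, 2 of 9 for surface epithelium were lower (Upk3b at −0.70 and Upk1b at −0.57), 1 of 12 for theca and stroma was higher (Star at 0.56), 1 of 5 for leukocytes was higher (Csf1r at 1.06), and 0 of 8 for endothelium and 0 of 2 for oocytes passed by edgeR, with 1 of each at an unadjusted p below 0.05 and 0 by DESeq2. Of all 14144 tested genes, 2435 had an unadjusted p below 0.05 by edgeR. DESeq2 passed as lower 4 of the smooth muscle, 5 of the granulosa, 3 of the surface epithelium and 1 of the theca and stroma markers. It passed as higher 1 of the theca and stroma and 1 of the leukocyte markers. The DESeq2 share of all genes in this comparison is not given. The lower and higher counts of edgeR without scramble replicate 1 were 7 and 3 of 12 for smooth muscle, 11 and 1 of 15 for granulosa, 4 and 0 of 9 for surface epithelium, 5 and 1 of 11 for theca and stroma, 0 and 3 of 8 for endothelium, 0 and 1 of 5 for leukocytes and 0 and 1 of 2 for oocytes. With all libraries, edgeR passed 3.95% of all tested genes as lower and 5.25% in either direction. In its fit without scramble replicate 1, 23.5% of genes were lower and 20.3% higher. The part of these cell types in the members' levels was not tested.

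The place of scramble replicate 1 among the libraries went with transcript length. It was the highest of the 11 libraries for 26 members, the lowest for 13 and in between for 6. Its log2 CPM minus the mean of the other scramble libraries was 1.33 for Tpm2 and 1.01 for Myl9, and −1.51 for Mkl2 and −1.31 for Rock1. Over the 45 members this difference had a Pearson r of −0.81 with log2 exon length and a Spearman rank correlation of −0.74. The points share 1 library, so this is a description across genes. The cause was not tested.

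**Figure D5:**
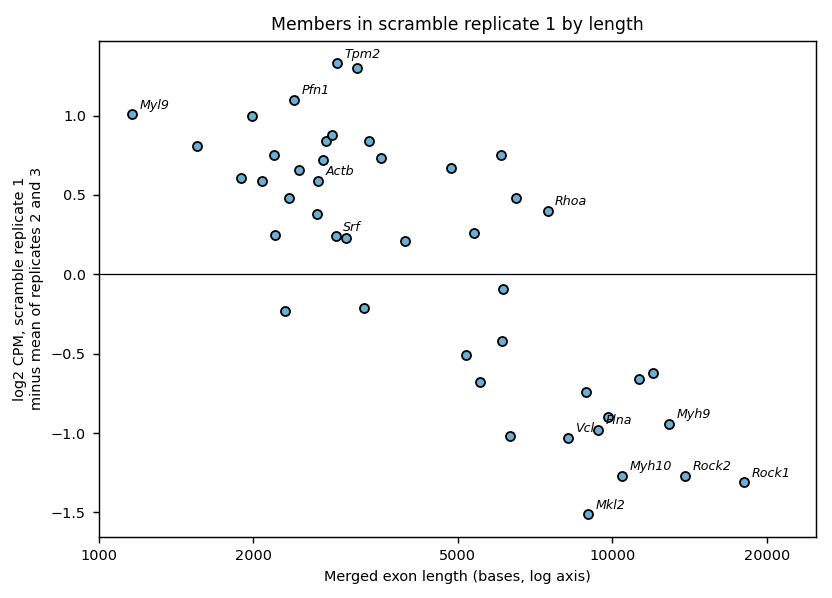
Log2 CPM of scramble replicate 1 minus the mean of scramble replicates 2 and 3 on the y axis, against merged exon length in bases on a log x axis, 1 point per member. Short members such as Tpm2 lie above 0 and long ones such as Mkl2 and Rock1 below it, with r = −0.81 over 45 members.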

How the data were processed

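RNA of 11 libraries was measured by stranded mRNA sequencing with single reads, per the labels. The authors deposited raw counts (whole numbers, 1 row per gene symbol) with no normalization. Per the submitters' processing notes, featureCounts 1.5.0-p2, TopHat2, cutadapt 1.9.1, FastQC 0.11.5, bcl2fastq 2.15.0 and DESeq2 were used, with build mm10. No source used here gives their settings or the strand setting. A table of the authors, deposited for all pools against scramble, holds log2 fold changes, standard errors, a mean signal, a test score and adjusted p-values, per the file headers.

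The 92 ERCC spike-in rows, 0.268% to 0.788% of the counts of a library, were left out of library sizes and tests. CPM were computed from the remaining reads. Tests used edgeR 4.0.16 (TMM scaling, filterByExpr, quasi-likelihood F test, two-sided) in R 4.3.3 on all 14144 genes that passed the filter, with Benjamini-Hochberg adjustment over all of them and a threshold of 0.05. All pools against scramble used a fit of 2 groups, 8 libraries against 3, which treats libraries of 1 pool as independent. The other comparisons used 1 fit of 5 groups with a shared spread. Alternatives were RLE and library-size scaling, no filter, a filter at 1 CPM in every library, DESeq2 1.42.0, the replicate number as a block, pool libraries alone, and leaving out each library. The procedure was tested on simulated data. Exon lengths, coordinates and shared 75-base windows came from GENCODE M21 (mm10). Promoter windows came from RefSeq. The members, the gene lists and the split of the pools were chosen with earlier results of these data known, and the comparison of pool 3 with pools 1 and 4 was added after values were seen. Every member with a row is named. Values in each library are given for Srf, Mkl1, Mkl2 and the members with the largest span of the 5 group means, 24 in all, and of each further list up to 3 passing genes with the largest fold change are named, beside Ctgf and Nr5a1, which were added after their values were seen. The results of 1 further gene list are not reported here.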

Additional observations from a re-analysis of the deposited data

Results flagged for a closer look

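Among the 8 pool libraries, 2 members had a single library whose distance to its nearest neighbour, as a share of the range, exceeded Dixon's 95% limit: Pfn1 in pool 3 replicate 2 at 0.567 and Rock1 in pool 3 replicate 1 at 0.626. Chance gives about 1 such library in 20 groups. The groups compared here are pools of different siRNAs.

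The effect of the Akt1 siRNAs against scramble differed between the 4 pools for 8 members, by edgeR's joint test over the pools, adjusted over all genes. The adjusted p was 0.00432 for Srf, 0.0153 for Myl12b, 0.0348 for Mylk, 0.0307 for Tpm3, 0.00386 for Lmod1, 0.0425 for Pdlim7, 0.0055 for Rhoa and 0.0462 for Ezr. Of all tested genes, 2.46% passed this test. In each of the 8 members, all 6 libraries of pools 1, 3 and 4 were below both libraries of pool 2, as in 18.7% of all tested genes. The 8 were picked for differing between the pools, so the order of their libraries is a description and not separate support. The causes were not tested.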

How the results depend on the processing

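Leaving out single libraries gave 0 to 12 members for all pools against scramble (0 with all libraries), 0 to 34 for pool 1 (6), 4 to 37 for pool 3 (17), 0 to 35 for pool 4 (7), 0 to 5 for pool 2 (0), 0 to 38 for any difference among the pools (8), 4 to 38 for pools 1, 3 and 4 against pool 2 (16) and 0 to 24 for pool 3 against pools 1 and 4 (0). With DESeq2 the counts were 12 for all pools, 14 for pool 1, 14 for pool 4, 16 for any difference and 2 for pool 3 against pools 1 and 4. Same-numbered libraries did not deviate together (correlations of −0.05 to 0.07), and the labels do not say whether they share more than a number. The replicate block gave 8 for all pools and 5 for any difference. Averaging the pools within the fit of 5 groups gave 13 for all pools. Pool libraries alone gave 42 for any difference, 40 for pools 1, 3 and 4 against pool 2 and 26 for pool 3 against pools 1 and 4. In the fit without scramble replicate 1, 42.8%, 43.7% and 24.7% of all genes passed these comparisons. Beyond those given above, shares of all genes are not given for the alternative settings. Such counts by themselves thus do not set the members apart from other genes. Of fold changes that passed in either fit, 7 turned their sign, all against scramble and all without scramble replicate 1, and over the libraries left out singly they ran as follows: Tagln2 was at −0.14 to 0.20 in pool 1 and −0.13 to 0.20 in pool 4, Msn at −0.16 to 0.27 in pool 1, −0.19 to 0.25 in pool 3 and −0.16 to 0.27 in pool 4, Myh9 at −0.14 to 0.26 in pool 2 and Fhl2 at −0.12 to 0.22 in pool 2. Other scalings moved the median of all genes by at most 0.067 and turned no called member. The causes were not tested. Depth limited Vil1, the member with the fewest reads.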
